A study of Rattus norvegicus with 3 samples.

Results

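The genes described here are those by which cells of the renal medulla gather organic osmolytes and move urea. They are Akr1b1 (aldose reductase, also written Akr1b4), Sord (sorbitol dehydrogenase), the osmolyte carriers Slc5a3, Slc6a12 and Slc6a6, the urea transporters Slc14a2 and Slc14a1, and Nfat5, the transcription factor of the response to tonicity. They were found by name and by the accession printed with each probe, which gave 8 genes with 10 probes, of 17791 named genes with a total of 30367 probes. The set was chosen with the values of these arrays known, above all the higher levels of Akr1b1 and Slc14a2 at both doses, so their differences are descriptions and no test was run on them.

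The water that leaves the collecting duct is drawn out by an interstitium rich in salt and urea, which is most concentrated at the papillary tip. Urea is delivered there by Slc14a2 of the inner medullary collecting duct and the thin descending limb, and is recycled through Slc14a1 of the descending vasa recta and red blood cells. Medullary cells balance the salt outside with compatible osmolytes: sorbitol, which Akr1b1 makes from glucose and Sord turns into fructose, myo-inositol taken up by Slc5a3, betaine by Slc6a12 and taurine by Slc6a6. NFAT5 binds tonicity-responsive enhancers of several of these genes and is known to raise their transcription when tonicity rises.

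The kidneys were those of male spontaneously hypertensive rats of Wistar background, aged 8 to 10 weeks and weighing 280 to 330 g. Groups of 10 rats received by mouth either water (control), or a protein hydrolysate of blue mussel at 10 mg/kg per day (low dose) or 20 mg/kg per day (high dose), for 4 weeks. Equal amounts of RNA of 4 rats per group were mixed and put on 1 single-colour oligonucleotide array, so the study has 3 arrays and no replicate pool. The spread between animals is therefore unknown, no p-value could be given, and precision is limited by having 1 array a group. The labels give kidney as the tissue and name no dissection of cortex from medulla.

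Levels are spot intensities scaled between arrays, and differences are given as log2. The limit for a probe to be above background was a signal-to-noise ratio of 3, reached by 50% or more of its spots. It was passed by 15317 probes for control, 15794 for the low and 16605 for the high dose. A gene counted as higher or lower at 2-fold or more with its probe above background on both arrays compared. The ± value of a probe with 10 spots is the SD over its spots of the difference between arrays. For a probe with 1 spot it is the median of that SD over 10-spot probes within 1 log2 unit of its brightness. Either is technical spread inside these arrays. Markers of kidney were present on all 3 arrays: in the order control, low dose, high dose, Umod of the thick ascending limb was at 37002, 28204 and 29647, Slc34a1 of the proximal tubule at 22995, 18668 and 18251, and Aqp2 of the collecting duct at 12205, 30805 and 18756. Triplets of levels below follow this order. In bulk tissue, more cells of a type and more RNA per cell cannot be told apart.

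Promoter sequences of the RefSeq build GRCr8, running from 250 bases before to 50 bases after a gene's start, were found for 6 of the 8 genes, with 2 starts for Slc14a2. None was available for Akr1b1 and Nfat5, so their promoters were not searched. Slc6a6 is shown because its promoter held the only match among the 7 to the tonicity-responsive enhancer consensus, searched on both strands. Both Slc14a2 starts are shown because the probes of the gene were designed on different transcripts and did not give the same pattern over the arrays. Capitals mark the enhancer match, which reads TGGAAAAATAC on the opposite strand, and the letters TATAAA.
Slc6a6, chr4:125752252-125752551, plus strand: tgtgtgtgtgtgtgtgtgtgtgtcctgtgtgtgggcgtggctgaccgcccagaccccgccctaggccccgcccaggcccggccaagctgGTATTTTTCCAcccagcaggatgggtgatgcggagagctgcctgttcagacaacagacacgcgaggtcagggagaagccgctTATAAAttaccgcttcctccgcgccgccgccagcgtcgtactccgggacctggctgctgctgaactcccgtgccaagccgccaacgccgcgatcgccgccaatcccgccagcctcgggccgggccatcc
Slc14a2, start farther upstream, chr18:74314497-74314796, minus strand: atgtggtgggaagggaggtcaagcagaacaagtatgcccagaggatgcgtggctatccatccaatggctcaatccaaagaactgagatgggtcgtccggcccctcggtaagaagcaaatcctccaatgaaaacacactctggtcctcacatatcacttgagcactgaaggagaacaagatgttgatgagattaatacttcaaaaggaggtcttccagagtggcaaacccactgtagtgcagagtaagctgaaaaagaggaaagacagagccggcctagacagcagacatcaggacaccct
Slc14a2, start inside the gene, chr18:73921535-73921834, minus strand: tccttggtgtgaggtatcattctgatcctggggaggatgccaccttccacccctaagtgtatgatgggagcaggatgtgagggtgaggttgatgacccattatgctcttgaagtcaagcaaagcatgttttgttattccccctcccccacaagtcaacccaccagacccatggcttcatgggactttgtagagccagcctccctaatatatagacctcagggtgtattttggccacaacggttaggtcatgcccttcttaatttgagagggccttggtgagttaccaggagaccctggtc

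The enhancer match in Slc6a6 began 161 bases before the start, and the TATAAA 79 bases before it. The full consensus occurred in 5.96% of 33365 promoter windows of this length, and its core TGGAAA, which lies inside the Slc6a6 match, in 22.7%. TATAAA was present in 14.2% of the windows and was also found in Slc14a1, 13 bases before its start. The cyclic AMP element TGACGTCA, in 1.83% of all windows, was not among the letters of any of the 7. These are matches of letters in a short window.

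Aldose reductase differed most from control among the 8 genes. Its probe had 10 spots. On the control array their scaled intensity ran from 40.0 to 60.5 with a median of 53.1, on the low-dose array from 450 to 521 with a median of 501, and on the high-dose array from 220 to 264 with a median of 237. All control spots lay below every spot of the treated arrays, and the spots of the low and high dose did not overlap either. The gene was 9.39-fold higher at the low dose (log2 difference 3.23 ± 0.13, SD over 10 spots) and 4.57-fold higher at the high dose (2.19 ± 0.13, SD over 10 spots). All 10 spots lay higher at either dose than at the same position on the control array. At the high dose it stood 2.06-fold below the low dose (−1.04 ± 0.05, SD over 10 spots).

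**Figure D1:**
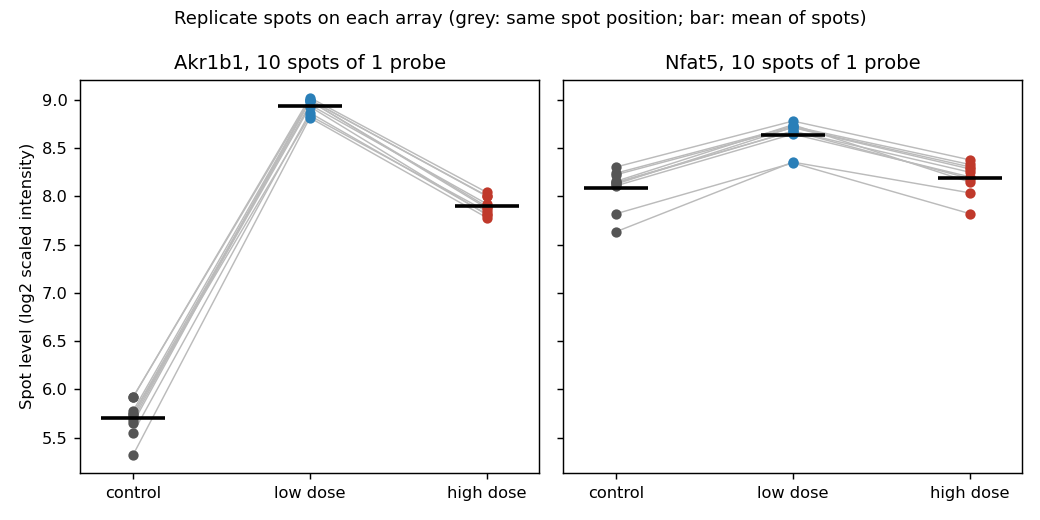
Log2 scaled intensity (y axis) of the 10 replicate spots of the Akr1b1 and Nfat5 probes on each array (x axis: control, low, high), with grey lines joining the same spot position and bars for the mean. The Akr1b1 spots form 3 separate groups, lowest on control and highest at the low dose, while the Nfat5 spots of control and high dose overlap.

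The control value of Akr1b1 was dim. The control spots had a median signal-to-noise ratio of 5.38 and 9 of 10 passed the limit of 3, so the fold rests on a small number left after background subtraction. With normexp, a background model that adds an offset of 50 and so shrinks folds of dim probes, the differences were 2.29 at the low dose and 1.39 at the high dose, both still past 2-fold, and −0.90 between doses, which is under 2-fold. In the authors' deposited table the differences from control were 3.04 and 1.98, and −1.06 between doses. Akr1b1 ranked 11 from the top of 9729 genes above background on both the low-dose and control arrays, and 11 of 9883 for the high dose and control.

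The enzyme that removes sorbitol did not follow. Sord was at 1324 in control, 1207 at the low dose and 1330 at the high dose. Its differences were −0.13 ± 0.10 at the low dose and 0.01 ± 0.09 at the high dose (1 spot each), which lie near that technical spread. The reductases most like Akr1b1 in name gave no such rise either. Akr1b8 was at 805, 825 and 826 (control, low, high), while Akr1b7 and Akr1b10 were not above background on any of them.

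The urea transporter Slc14a2 was the other gene past 2-fold. Its probe for transcript NM_019347 read 114 in control, 369 at the low dose and 365 at the high dose. Both treated arrays stood well above control and were nearly equal. The gene was 3.23-fold higher at the low dose (1.69 ± 0.11, 1 spot) and 3.20-fold higher at the high dose (1.68 ± 0.10, 1 spot), with −0.02 ± 0.07 between doses. Under normexp the differences were 1.32 and 1.31, past 2-fold at both doses.

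A different probe of Slc14a2, for transcript NM_177962, was dimmer and gave another order of the doses. It read 17.1 on the control array, where it was not above background, 80.7 at the low dose and 41.0 at the high dose. This amounts to at least 4.71-fold higher at the low dose and at least 2.40-fold higher at the high dose, against its own value on the control array, which was above the lowest value that counted as signal there. Between doses this probe was at −0.97 ± 0.16 (1 spot), so the probes placed the high dose either level with the low dose or about as far below it as Akr1b1 was. Which of the promoters shown above starts either transcript is not given in the tables used here.

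The vasa recta urea transporter Slc14a1 was barely detected. Its probe read 13.7 on the control and 14.4 on the low-dose array, below the limit on both, and 19.2 on the high-dose array, where its signal-to-noise ratio of 3 lay exactly on the limit. The value at the high dose was at least 1.40-fold that of control (0.48 ± 0.24, 1 spot), and with the low dose and control both below background no fold is given there.

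The betaine carrier Slc6a12 was the member that separated the doses in the other direction. It read 162 in control, 129 at the low dose and 273 at the high dose, so that the low dose was lowest and the high dose highest. Its differences from control were −0.33 ± 0.11 at the low dose and 0.75 ± 0.11 at the high dose (1 spot each), neither past 2-fold. The high dose stood 2.12-fold above the low dose (1.08 ± 0.08, 1 spot), which ranked 35 from the top of 10116 genes above background at both doses. Under normexp this difference was 0.83, under 2-fold, and in the authors' deposited table it was 1.12.

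The carriers of inositol and taurine were within 2-fold of control. Slc5a3 read 872 in control, 1237 at the low dose and 924 at the high dose, with differences of 0.50 ± 0.10 and 0.08 ± 0.10 (1 spot each). Slc6a6 read 277, 331 and 244, with differences of 0.26 ± 0.10 and −0.18 ± 0.10 (1 spot each). The spots of both carriers lay in 1 corner of the control array that had weak signal: over the 74 spots measured in their tile of the grid, the median difference was itself 0.77 at the low dose and 0.61 at the high dose. After each spot was shifted by the median of its tile, Slc5a3 stood at −0.26 and −0.53 and Slc6a6 at −0.51 and −0.79 at the low and high dose. The sign of both at the low dose, and of Slc5a3 at the high dose, therefore turned, and no direction against control can be read there. Slc6a6 at the high dose lay below control with and without the shift, but the size depended on it (−0.79 and −0.18). The comparison between doses is less touched by the corner. There both carriers were lower at the high dose without and with that shift, Slc5a3 at −0.42 and −0.27 and Slc6a6 at −0.44 and −0.28.

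The transcription factor Nfat5 differed by less than 2-fold. The 10 spots of its brighter probe ran from 199 to 316 with a median of 283 in control, from 326 to 440 with a median of 414 at the low dose, and from 226 to 333 with a median of 300 at the high dose. Every low-dose spot lay above all control spots, while those of the high dose and control overlapped. The difference was 0.54 ± 0.07 at the low dose, where 10 of 10 spots were higher than their counterpart, 0.10 ± 0.12 at the high dose and −0.44 ± 0.08 between doses (SD over 10 spots). A further Nfat5 probe was not above background on any array.

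**Figure D2:**
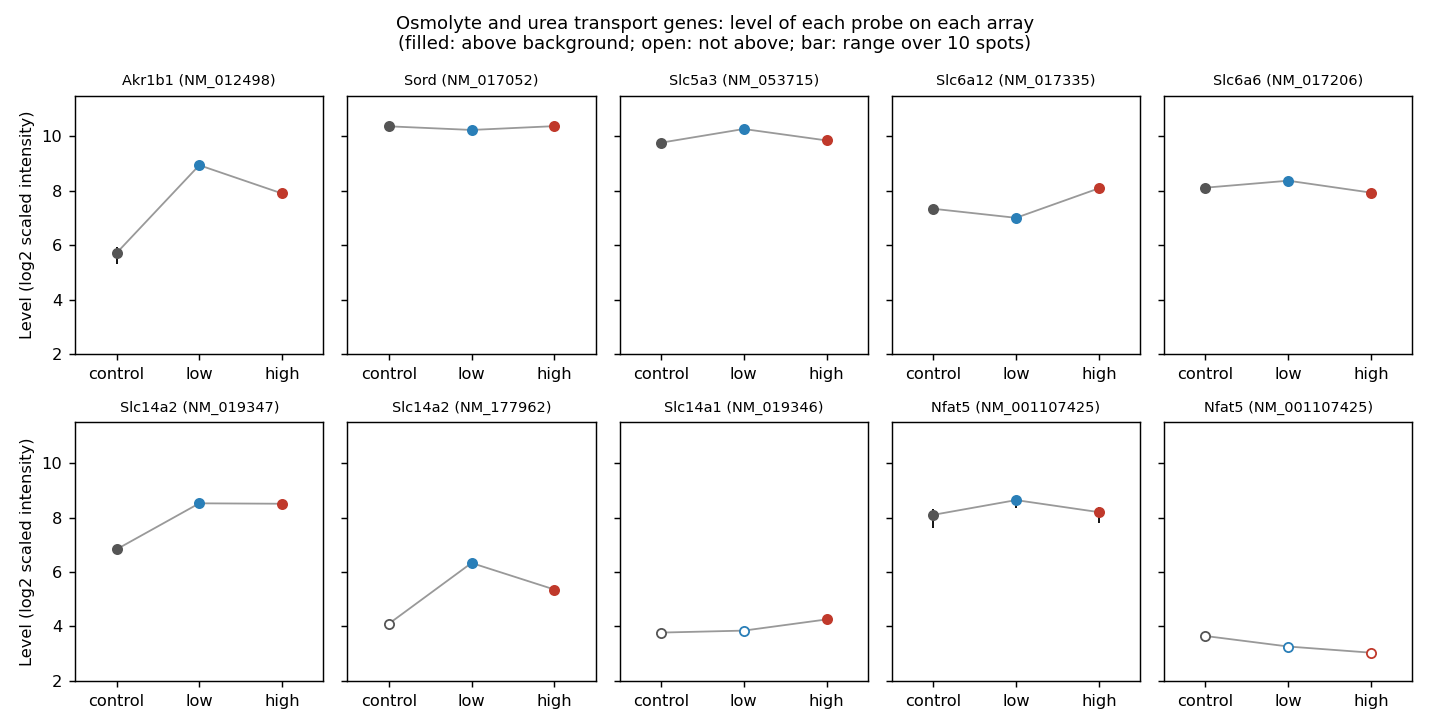
Log2 scaled intensity (y axis) of each of the 10 probes by array (x axis: control, low, high), filled where the probe was above background and open where it was not, with bars for the range over spots where a probe had 10. Heights may be compared between arrays within a panel and not between panels. Akr1b1 and both Slc14a2 probes are lowest on control, Slc6a12 is highest at the high dose, and Sord is level.

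In all, 7 of the 8 genes were above background on all 3 arrays. At the low dose 2 of them, Akr1b1 and Slc14a2, were at least 2-fold higher than control, beside 2.5% of the 9729 genes tested, and 0 were at least 2-fold lower, beside 0.668%. At the high dose the same 2 were higher, beside 0.85% of 9883 genes, and 0 were lower, beside 0.152%. These counts are what the genes were chosen on, and both comparisons use the same control array. Between the doses Slc6a12 was at least 2-fold higher at the high dose, beside 0.465% of 10116 genes, and Akr1b1 was lower by at least 2-fold, beside 1.48%. The median difference of the 7 genes was 0.50 at the low dose, 0.10 at the high dose and −0.42 between doses, beside −0.11, −0.04 and 0.04 over the 9641 genes above background on all 3 arrays. The medians of 0.50 and −0.42 are both values of Slc5a3, whose spot lay in the weak corner.

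**Figure D3:**
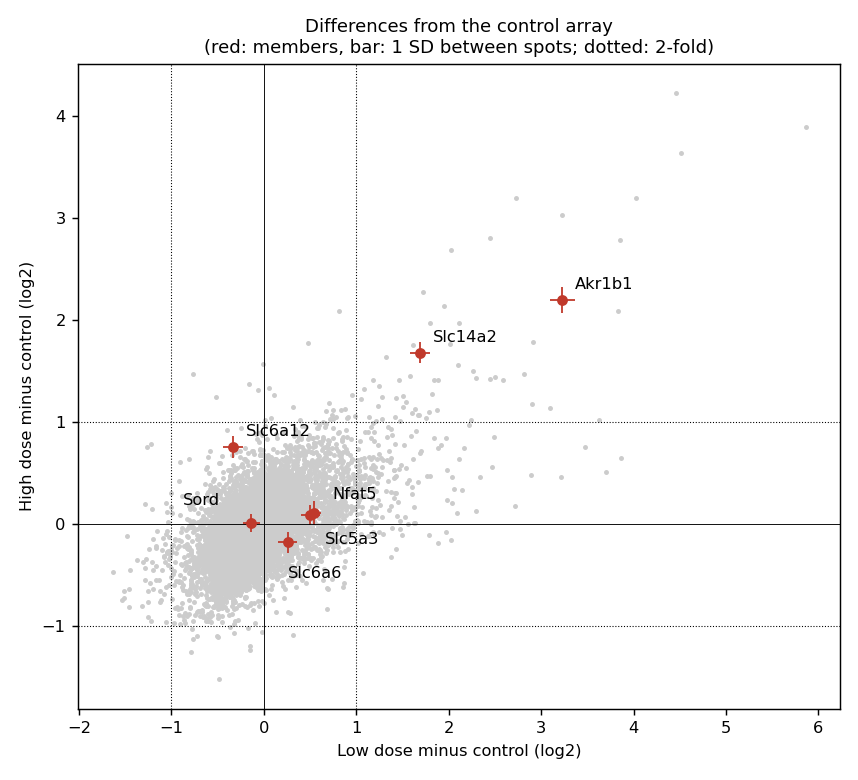
Log2 difference from control at the low dose (x axis) and at the high dose (y axis), with grey points for the other named genes above background on all 3 arrays, red points for the 7 members, bars of 1 SD between spots, and dotted lines at 2-fold. Akr1b1 and Slc14a2 lie past 2-fold on both axes, and Slc6a12 lies left of 0 and above it.

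The genes whose differences lay closest to those of Akr1b1 were found by the distance in the plane of both differences from control, over 9640 other genes on 3 arrays. First came Fasn, which builds fatty acids, at 2.91 and 1.78 for the low and high dose (distance 0.53), Cox8b, a subunit of cytochrome oxidase found in muscle and brown fat, at 3.83 and 2.09 (0.61), and Cidea, a lipid droplet protein of brown fat, at 2.81 and 1.47 (0.83). Adipoq, the fat cell hormone adiponectin, at 3.22 and 3.03 (0.84), and Uchl1, a ubiquitin hydrolase, at 3.86 and 2.78 (0.86) followed. For Slc14a2 the nearest were Atxn2l at 1.61 and 1.76 (0.11), Ctu2 at 1.59 and 1.45 (0.25) and the amine oxidase Aoc3 at 1.85 and 1.41 (0.31). Hsd17b8 at 1.80 and 1.97 (0.32) and Nrip3 at 1.88 and 1.41 (0.32) came next. No other member was among these genes.

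Other steps of osmolyte and urea metabolism were described from lists, by members above background on all 3 arrays. All 9641 genes of that kind had medians of −0.11 at the low and −0.04 at the high dose. Most genes thus lay below control at either dose. Of 7 genes on the inositol route, 0 were at least 2-fold higher at the low dose, beside 2.5% of all genes tested. At the high dose 1 was, beside 0.85%: Isyna1, which makes inositol phosphate from glucose phosphate. Isyna1 read 213 in control, 413 at the low dose and 514 at the high dose, at 0.95 and 1.27. The list's median was −0.30 at the low and −0.21 at the high dose. All 8 genes of taurine and betaine metabolism lay below control at the low dose (median −0.48) and 6 of 8 at the high dose (−0.18), with none past 2-fold. Among them were Chdh, which makes betaine aldehyde from choline, at −0.48 and −0.57, and Bhmt, which consumes betaine, at −0.67 and −0.57. Of 8 genes of urea and ammonia metabolism and 7 of the sorbitol route and its relatives, none was past 2-fold at either dose, with medians of −0.17 and −0.16 at the low dose and −0.14 and −0.07 at the high dose. The 6 genes of glycerophosphocholine, a further osmolyte, had medians of −0.08 and −0.16, also with none past 2-fold.

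Known or proposed NFAT5 targets and osmotic stress genes split. Of 14 measured, 6 were at least 2-fold higher at the low dose and 2 at the high dose, with 0 lower at either, beside 2.5% and 0.85% of all genes tested that were higher. By sign alone 9 lay above and 5 below control at the low dose, and 7 and 7 at the high dose, with medians of 0.66 and 0.25. The injury lipocalin Lcn2 stood at 3.70 and 0.50, the chemokine Ccl2 at 2.50 and 1.44, S100a4, a calcium-binding protein, at 1.97 and 0.84, and the tight junction claudin Cldn4 at 1.66 and 1.07, for the low and high dose. The kinase Sgk1, induced by osmotic stress and by corticosteroids, was at −0.10 and −0.97, and the small heat shock protein Cryab at −0.37 and −0.07. Between doses 4 of the 14 were at least 2-fold below the low-dose level, beside 1.48% of all genes tested. Several of these genes also mark other cells or injury, and Lcn2 and Ccl2 are not specific to tonicity. This list, like the others, was chosen with earlier results of these data known, so its counts are descriptions. Aqp2, among those past 2-fold at the low dose, is also in the lists of water channels and collecting duct markers below. The 9 genes upstream of or bound to NFAT5 had medians of 0.00 and −0.17 with none past 2-fold.

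Few genes of the transport that builds the medullary gradient were past 2-fold. The 11 genes of vasopressin signalling and water channels had a median of 0.33 at the low and 0.17 at the high dose, with 1 past 2-fold, the collecting duct water channel Aqp2 at 1.34 at the low dose, beside 2.5% of all genes tested. The vasopressin receptor Avpr2 stood at 0.33 and 0.68. The 9 counter-current salt transport genes had medians of −0.24 and 0.10 with none past 2-fold. Slc12a1, the cotransporter of the thick ascending limb, read 5071 in control, 2695 at the low dose and 5363 at the high dose, so it was lowest where Akr1b1 was highest.

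Markers of the collecting duct, which holds several of these genes, were in part also higher on the treated arrays. The list used does not separate the inner medulla and papilla from the rest of the duct. Of 14 collecting duct markers, 10 lay above control at the low dose, with 3 past 2-fold. At the high dose 8 lay above control, with none past 2-fold. Of all genes tested, 2.5% and 0.85% were at least 2-fold higher. The collecting duct markers had medians of 0.66 and 0.57. Their summed intensity over 15 genes was 23172, 44950 and 30641, of which Aqp2 was the larger part. Krt18 stood at 1.48 and 0.58, Fxyd4 at 1.34 and 0.95, Aqp3 at 0.85 and 0.61 and Aqp4 at 0.83 and 0.63, while the sodium channel subunit Scnn1g was at −0.27 and −0.36 and Hsd11b2, which inactivates glucocorticoid in these cells, was at −0.44 and −0.51. Of 7 thin limb markers 5 lay above control at the low and 3 at the high dose (medians 0.22 and −0.07). At the low dose 2 of these, S100a4 and Cldn4, were at least 2-fold higher, beside 2.5% of all genes tested. At the high dose 1 was, Cldn4, beside 0.85%. Both genes are also in the list of NFAT5 targets above. The sum over 10 thin limb genes was 19315, 17962 and 19116, and Epha7 was not above background on any.

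Markers of the renal pelvis lining and of fat also differed between the arrays. Of 7 urothelial genes, Upk2 and Upk3a, which line the renal pelvis, were above background only on the treated arrays. Upk3a was at least 19.6-fold higher at the low and at least 12.1-fold higher at the high dose, and Upk2 at least 10.2-fold and at least 7.72-fold. Of the 3 genes measured on all arrays, Upk1a read 86.8, 373 and 254, at 2.10 and 1.55. The other two did not reach 2-fold: Upk1b read 70.8, 68.2 and 80.3, at −0.05 and 0.18, and Krt19 183, 239 and 182, at 0.39 at the low dose and level at the high dose. The sum over the list was 417, 1357 and 972, with Upk3b and Krt5 not above background on any. The 5 adipocyte markers measured were all above control, with medians of 3.22 and 3.03 and sums over 9 genes of 572, 5636 and 3292. Ucp1 stood at 5.86 and 3.89, Fabp4 at 4.02 and 3.20 and Lpl at 0.33 and 0.93, and Adipoq, among the genes nearest to Akr1b1 above, belongs to this list. Lep and Plin1 were not above background on any array. Of the 4 medullary interstitial markers measured, 3 were at least 2-fold higher at the low and 0 at the high dose, beside 2.5% and 0.85% of all genes tested. Col15a1 stood at 2.30 and 0.13, Ptgs1 at 1.64 and 0.91, Pdgfra at 1.02 and 0.18 and Ptger3 at 0.01 and 0.95. The sum over 7 genes was 669, 1926 and 898, with Ptgs2, Tnc and Penk not above background on any array.

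Proximal tubule markers lay below control in 16 of 17 genes at either dose (medians −0.38 and −0.52), with sums of 324031, 264451 and 254791. The medians over the 9641 genes above background on all 3 arrays were −0.11 and −0.04. Most genes thus also lay below control, but at the median by less than these markers. At the low dose 2 of the 17, Slc22a2 (−1.31) and Slc7a13 (−1.29), were at least 2-fold lower, beside 0.668% of all genes tested. At the high dose 0 were, beside 0.152%. Thick ascending limb markers lay below control in 7 of 8 genes at the low and in 3 of 8 at the high dose (medians −0.63 and 0.05, sums 59807, 42477 and 47914). Macrophage markers had medians of 0.94 and 0.23 (sums 14409, 19973 and 13648), with 6 and 5 of 7 above control. Fibroblast markers had medians of 1.26 and 0.25 (sums 3560, 10953 and 3862), with 6 and 4 of 6 above control. At least 2-fold higher at the low dose were 3 macrophage and 5 fibroblast markers, beside 2.5% of all genes tested. At the high dose 0 of either list were, beside 0.85%. Podocyte markers had medians of −0.30 and −0.31 (6 and 5 of 6 below control), distal convoluted tubule markers −0.21 and −0.59 (2 of 3 at either dose), and intercalated cell markers −0.37 and 0.16 (5 and 2 of 5). The 2 red blood cell genes, whose cells carry Slc14a1, stood above control with medians of 0.44 and 0.64. The sums of the collecting duct, interstitial, urothelial, adipocyte and fibroblast lists were, like Akr1b1, lowest in control and highest at the low dose. The interstitial and fibroblast lists share Pdgfra, so their sums are not separate observations. The part of any of these cell types in the differences of Akr1b1, Slc14a2 and Slc6a12 was not tested.

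**Figure D4:**
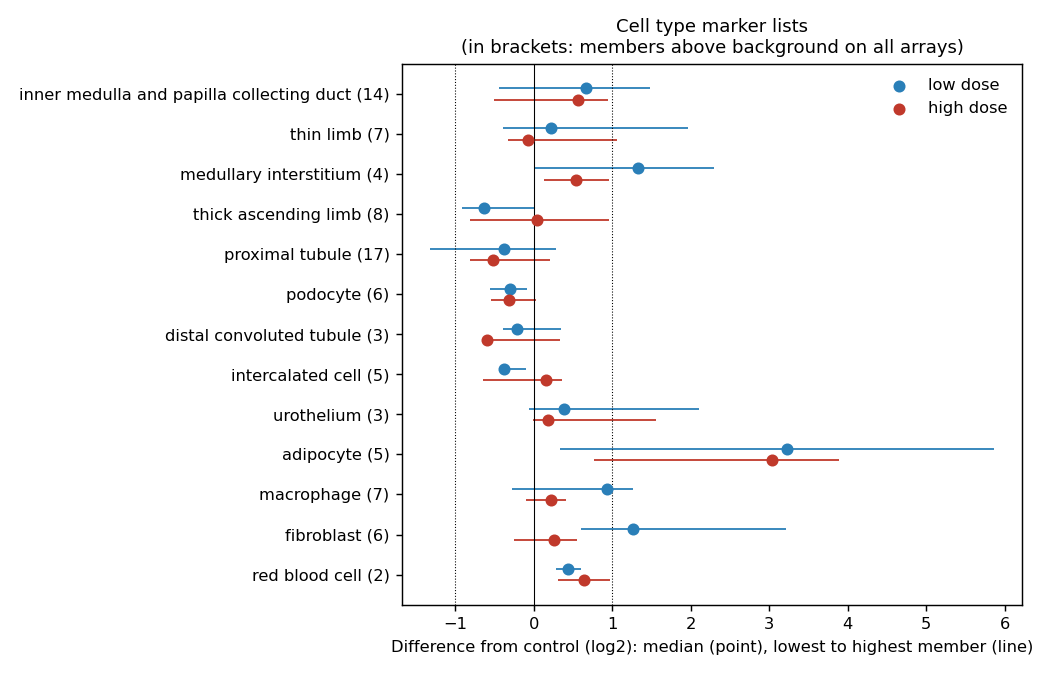
Log2 difference from control (x axis) for 13 lists of cell type markers (y axis, with the number of members above background on all arrays), with a point for the median and a line from the lowest to the highest member, at the low dose in blue and the high dose in red. The median of the adipocyte markers lies farthest right at both doses, that of the collecting duct right of 0 at both, and those of proximal tubule and podocyte left of 0.

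**Figure D5:**
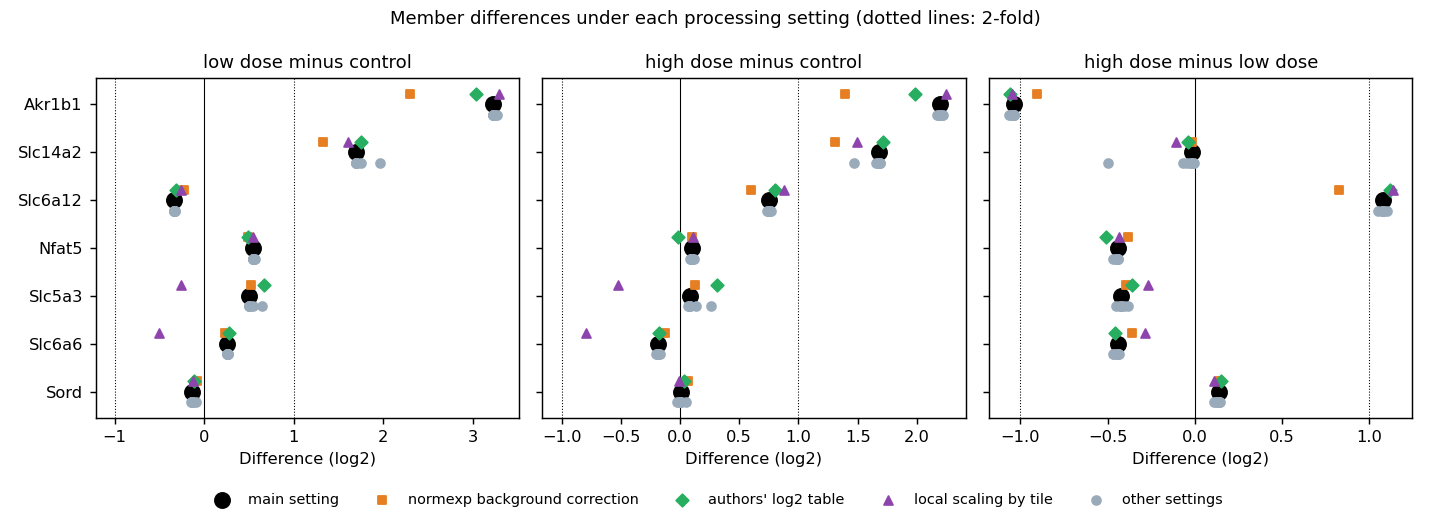
Log2 difference (x axis) of the 7 measured members (y axis) in the 3 comparisons under each processing setting, with the reported value in black and dotted lines at 2-fold. Akr1b1 and Slc14a2 stay past 2-fold above control under every setting drawn, and the shift by tile moves Slc5a3 and Slc6a6 to the other side of 0 at the low dose.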

How the data were processed

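The authors' scanner files, 1 per array, give spot intensity at 532 nm from GenePix Pro 6.1.0.4 at a photomultiplier gain of 550, per the file headers (Agilent Feature Extraction is the tool in the submitters' processing notes). A background of 39 (control and high dose) or 40 (low dose) is subtracted from the deposited intensity, per the file headers. The share of saturated pixels is deposited as a percent, and signal-to-noise ratio and flag as a score. A further deposited table, made by the authors, holds log2 values with equal medians (4.77); the sources used here do not give its scaling.

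Control spots, bright spots that the software did not find (6, 5 and 6) and spots whose net mean and median differed by over 1.5-fold (166, 139 and 80) were left out. Net means were averaged over a probe's spots, scaled to equal 75th percentiles (factors 1.14, 0.960 and 0.912), floored at 1 and taken as log2. Probes were named by accession, then symbol, through RefSeq (GRCr8). The probe above background on most arrays, then the brightest, stood for a gene. Tiles were 14 columns by 10 rows. The script recovered known changes put into simulated spots. The alternatives were normexp (limma 3.58.1), quantile and median scaling, the authors' table, spot filters, the dim filter, probe means and spot medians, with the shift by tile added after the data were seen. Members and lists were chosen with earlier results of these data known. The rule for named genes took all members, up to 4 per pathway list past 2-fold, up to 5 per marker list (its first 3 and those past 2-fold), and the 5 nearest patterns. Not every marker it allows is named. Akr1b8, Chdh, Bhmt, Avpr2, Slc12a1, Sgk1, Cryab, Hsd11b2, Scnn1g, Krt19 and Lpl were named outside it after their values were seen, as were the genes given as not above background and others of the marker lists beyond 5. All arrays lay on 1 slide, so group and position cannot be told apart. A mouse design is named in 1 header (high dose), with probe IDs equal to those of the other files.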

Additional observations from a re-analysis of the deposited data

How the results depend on the processing

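Akr1b1 and Slc14a2 stayed at least 2-fold above control at both doses under all 10 alternatives, with Akr1b1 between 2.29 and 3.30 at the low and between 1.39 and 2.25 at the high dose, and Slc14a2 between 1.32 and 1.96 and between 1.31 and 1.71. Under normexp background correction, the counts between doses were 0 members higher in place of 1 (Slc6a12) and 0 lower in place of 1 (Akr1b1); the cause was not tested. The other counts of members past 2-fold were equal to the reported ones under the alternatives run. Without the spots of weak tiles Slc5a3 and Slc6a6 have no value, since their only spots lay there. With the mean over both probes, Slc14a2 stood at −0.50 between doses. Sord and Nfat5 at the high dose lay within 0.12 of 0 under all alternatives and took either sign. Scaling alternatives moved the median of all genes from control by less than 0.1. Single spots, dim control signal for Akr1b1 and Slc14a1 near background limit what can be read. No paired analysis was possible because each group has 1 array.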
